A study of Mus musculus with 6 samples.

Results

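The genes described here are those of the mitochondrial carrier family (solute carrier family 25) and its uncoupling proteins, in marrow of P2rx7 knockout and wild-type mice. They were found by a rule on names, set with earlier results of these data known. It took every gene of the deposited table whose symbol starts with Slc25a and a digit and has no hyphen, and Ucp1, Ucp2 and Ucp3. This gave 50 of the 55291 genes, 47 Slc25a genes and 3 uncoupling proteins. The groups were 3 P2rx7 knockout mice, called knockouts A to C, and 3 wild-type mice, called WT 1 to WT 3, all aged 6 to 8 weeks, with 1 library per mouse from marrow flushed out of the femurs. The labels give no strain, sex or design of the knockout allele, and the series title places the work in bone ageing and the mitochondria of mesenchymal stromal cells.

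Mitochondrial carriers are small proteins of the inner mitochondrial membrane. Most of them move a narrow range of metabolites across a membrane that is otherwise closed to charged molecules: ADP and ATP, phosphate, carboxylates, amino acids, iron and cofactors. The uncoupling proteins belong to the same family, and the best known of them, Ucp1, lets protons leak back in brown fat so that respiration yields heat. In marrow the family is known above all for haem synthesis, since Slc25a37 (mitoferrin 1) brings iron and Slc25a38 brings glycine into the mitochondria of developing red cells.

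P2rx7, the ATP-gated channel that was targeted, stood at 6.63, 6.37 and 6.24 FPKM in knockouts A, B and C, against 10.1, 10.2 and 10.5 FPKM in WT 1, 2 and 3. Its transcripts were lower in each knockout but still present (log2 fold change -0.67 ± 0.05 SE, adjusted p = 0.0109, edgeR), and a count per gene cannot tell which exons are lost. Totals were 18716704 to 22382281 counts per library in the knockouts and 20037343 to 23575652 in the wild types. Knockouts B and C held 46 and 36 counts of the liver gene Alb and 0 of the pituitary gene Gh, while knockout A had 23 and WT 1, 2 and 3 had 54, 82 and 75 counts of Gh, and 0 of Alb. The labels do not explain these 2 sets of libraries, and the set of knockouts B and C holds no wild type. The P2rx7 call was lost when the fit also held a term for these sets, at -0.64 ± 0.07 SE and an adjusted p of 0.112, and with knockout A as the only knockout (-0.64, adjusted p = 0.516). It was also lost without knockout B (-0.67, adjusted p = 0.0763) or knockout C (-0.65, adjusted p = 0.0973, all edgeR). In bulk RNA, fewer cells of a type and less RNA per cell cannot be told apart.

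The labelled tissue was set against marker genes. Red cell transcripts were nearly missing: of 14 erythroid markers in the table, the globin genes Hba-a1, Hba-a2, Hbb-bs and Hbb-bt had at most 5 counts in any library, Alas2 at most 4, and the red cell membrane gene Slc4a1 had 0 in all. The list summed to 127 to 138 CPM in the knockouts and 111 to 113 CPM in the wild types. Most of it came from the transferrin receptor Tfrc, which many cells express. The list's 2 tested genes, Tfrc and Epor, had log2 fold changes of 0.21 ± 0.05 and 0.62 ± 0.22 (SE). Their unadjusted p-values were 0.00207 and 0.0213, and their adjusted p-values were 0.146 and 0.232 (edgeR). The 7 B cell markers summed to 1.3 to 1.91 CPM in the knockouts and 0.902 to 1.29 CPM in the wild types. Of these Ms4a1 had 0 to 3 counts per library, and Cd79b had 12 to 21. Neutrophil precursor markers varied within each genotype, at 94.9, 553 and 449 CPM in knockouts A, B and C and 190, 80.3 and 346 CPM in WT 1, 2 and 3. Mature neutrophil markers summed to 57.1, 168 and 167 CPM in the knockouts and 190, 104 and 198 CPM in the wild types. Macrophage markers summed to 4610 to 5150 CPM in the knockouts and 4660 to 4730 CPM in the wild types. Marrow stromal markers summed to 5210 to 6190 CPM in the knockouts and 2100 to 4250 CPM in the wild types. The stromal sum was mostly Cxcl12, at 4020, 4900 and 4700 CPM in the knockouts and 2700, 1330 and 3170 CPM in the wild types. Of the 9 stromal markers, 5 (55.6%) had all knockouts above all wild types, against 11.5% of all tested genes. The genotypes overlapped in Pdgfra, Pdgfrb, Foxc1 and Grem1. The osteoblast list had the highest sum, 8410 to 8990 CPM in the knockouts and 8900 to 10800 CPM in the wild types, most of it from the collagen gene Col1a1. Of the other osteoblast markers, Bglap, Bglap2 and Dmp1 had at most 12 counts in any library, and Sp7, Runx2, Alpl and Ibsp at least 269. The carriers were therefore measured in RNA rich in Col1a1, stromal and macrophage transcripts and nearly without globin transcripts.

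Some carriers lie side by side in the genome, with 5 pairs of members within 20 kb of each other. Ucp3 and Ucp2 sit 6.9 kb apart on the plus strand of chromosome 7 with no gene of the table between them. The stretches upstream of their starts are shown because these neighbours averaged 0.0441 and 93.5 FPKM over the 6 libraries, and those of Slc25a34 and Slc25a24 because these genes had the highest and the lowest log2 fold change. Each line gives the 250 bases before the start site in RefSeq (GRCm38.p6), in the direction of the gene, with CpG dinucleotides in capitals. The regions are chr7:100472741-100472990 (plus strand) for Ucp3, chr7:100493108-100493357 (plus strand) for Ucp2, chr4:141623835-141624084 (minus strand) for Slc25a34 and chr3:109122899-109123148 (plus strand) for Slc25a24.
Ucp3: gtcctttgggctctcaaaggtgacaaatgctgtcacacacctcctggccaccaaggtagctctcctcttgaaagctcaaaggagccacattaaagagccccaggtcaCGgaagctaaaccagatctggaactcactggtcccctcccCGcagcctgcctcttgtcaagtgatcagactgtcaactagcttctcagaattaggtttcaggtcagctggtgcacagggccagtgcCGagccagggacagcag
Ucp2: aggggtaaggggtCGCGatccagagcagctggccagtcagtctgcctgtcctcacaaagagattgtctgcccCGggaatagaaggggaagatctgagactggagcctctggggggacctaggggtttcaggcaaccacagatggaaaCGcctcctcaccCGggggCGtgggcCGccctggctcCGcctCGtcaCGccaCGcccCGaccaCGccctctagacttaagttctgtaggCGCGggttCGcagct
Slc25a34: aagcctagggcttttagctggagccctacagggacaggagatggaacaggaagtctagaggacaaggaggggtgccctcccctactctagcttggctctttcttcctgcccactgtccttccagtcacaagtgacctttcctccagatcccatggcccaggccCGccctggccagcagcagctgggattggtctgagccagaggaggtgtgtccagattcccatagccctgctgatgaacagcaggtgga
Slc25a24: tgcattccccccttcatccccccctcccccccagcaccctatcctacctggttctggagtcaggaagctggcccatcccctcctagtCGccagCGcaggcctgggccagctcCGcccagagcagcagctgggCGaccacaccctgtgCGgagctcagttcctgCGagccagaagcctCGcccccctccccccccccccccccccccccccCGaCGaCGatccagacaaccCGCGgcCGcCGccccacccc

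These stretches held 3 CpG dinucleotides for Ucp3, 16 for Ucp2, 1 for Slc25a34 and 14 for Slc25a24. Of the 50 members, 39 matched the RefSeq promoter table. Over windows of 300 bases, from 250 before to 50 after the start, matched members had a median of 17 CpG dinucleotides (range 1 to 47), and all 27025 genes of the table had a median of 7. The 32 matched members that passed the filter on low counts had a median of 18.5, and the 7 that did not had 14. The 8-letter core GCGCATGC, read on either strand (GCATGCGC on the other), of the sites of NRF1, a regulator of many genes for mitochondrial proteins, was found in 2 of 39 matched members (5.13%) and in 3.05% of all genes of the table. Both members, Slc25a31 and Slc25a54, were among those with too few counts to test. Such matches describe the letters of the window and not binding.

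Levels are compared between genes in FPKM, counts divided by exon length and library size. Slc25a4, an ADP/ATP carrier, was highest, with a mean of 110 FPKM over the 6 libraries. It was followed by Ucp2 at 93.5, Slc25a5 at 74.9, Slc25a3 at 57.5, Slc25a39 at 53.4, Slc25a11 at 44.9 and Slc25a1 at 42.3 FPKM. These 7 members were at 40 FPKM or more, 7 others lay between 10 and 40, 22 between 1 and 10 and 5 between 0.4 and 1, and 9 were under 0.4 and failed the filter. The members summed to 696, 709 and 683 FPKM in knockouts A, B and C, against 694, 710 and 689 FPKM in WT 1, 2 and 3. That sum was 0.252 ± 0.00319% of all FPKM in the knockouts and 0.251 ± 0.00321% in the wild types (SD, n = 3 each).

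**Figure D1:**
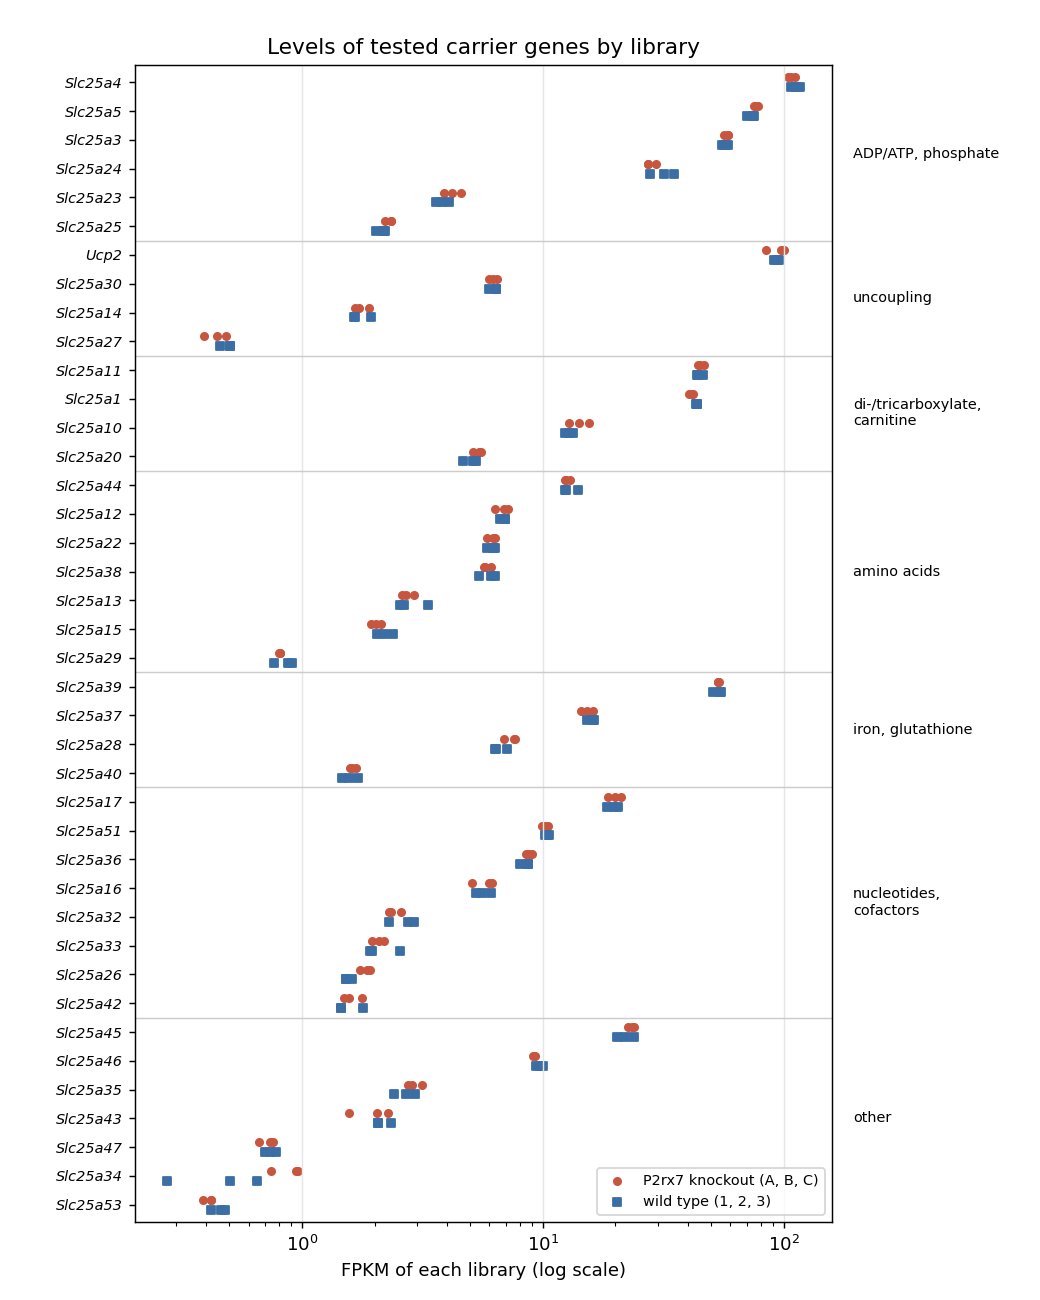
FPKM of each library (log scale) for 40 of the members that passed the filter, grouped by role; circles are P2rx7 knockouts and squares are wild types. Means over all libraries range from 0.431 to 110 FPKM, and for most genes the points of both genotypes overlap.

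None of the 41 tested members passed the test for a difference between genotypes. At an adjusted p below 0.05, with p-values adjusted over all 15478 tested genes, 0 members were called by edgeR, against 0.103% of all tested genes. The lowest adjusted p of a member was 0.215 (edgeR). DESeq2 also called 0 members, where it called 496 of all 15478 tested genes. In the edgeR fit 3 members had an unadjusted p below 0.05. Those 3 are 7.32% of the tested members, where 16.6% of all tested genes reached that p. All of them were higher in the knockouts, which 8.35% of tested genes were at this p, and 0 members were lower, against 8.22% of tested genes. In 3 members all knockouts lay above all wild types, and in 2 all lay below, where 11.5% and 10.4% of tested genes did.

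Most of the measured differences were small. Log2 fold changes ran from -0.16 for Slc25a24 to 0.91 for Slc25a34, with a median of 0.008, against 0.004 over all tested genes, and 22 were positive and 19 negative. Their median size was 0.059, against 0.106 over all tested genes and 0.095 over the 13523 tested genes within the members' range of FPKM. In 39 of 41 members (95.1%) the size was under 0.2, a 1.15-fold difference, as it was in 71.0% of all tested genes. The exceptions were Slc25a34 and Slc25a26. The 95% interval of the log2 fold change lay within ±0.5, or 1.41-fold, in 38 members. Those of Slc25a34, Slc25a27 and Slc25a43 reached beyond it, so that a change of that size in these genes is not bounded by the data.

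**Figure D2:**
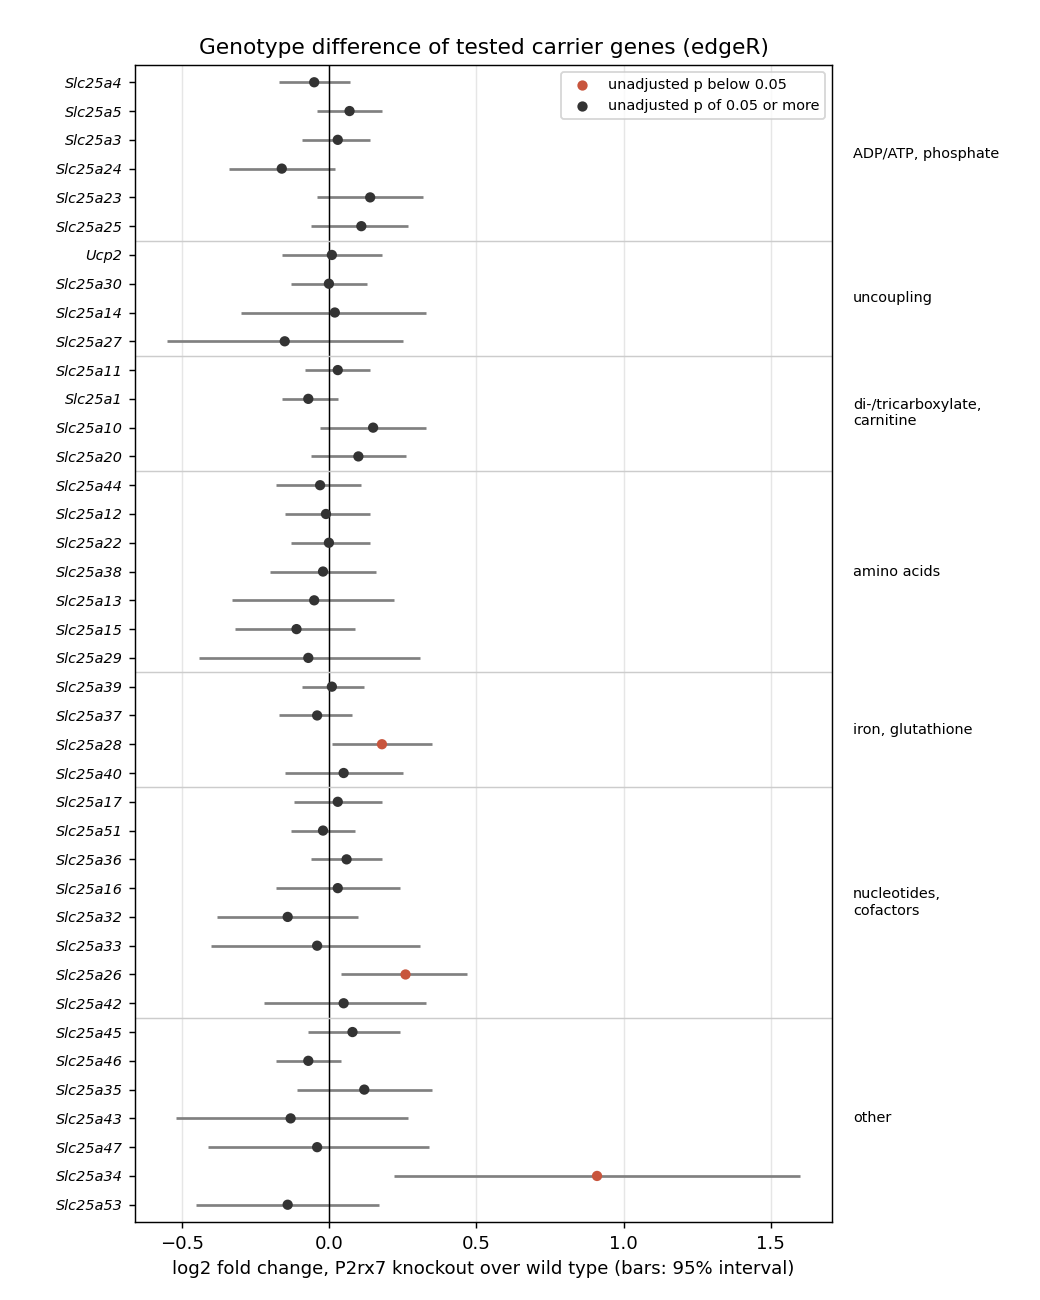
Log2 fold change, P2rx7 knockout over wild type, of 40 tested members with 95% intervals (edgeR, not adjusted for multiple tests), grouped by role. Red points mark Slc25a28, Slc25a26 and Slc25a34, whose unadjusted p was below 0.05; 37 of the 40 intervals lie within ±0.5.

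**Figure D3:**
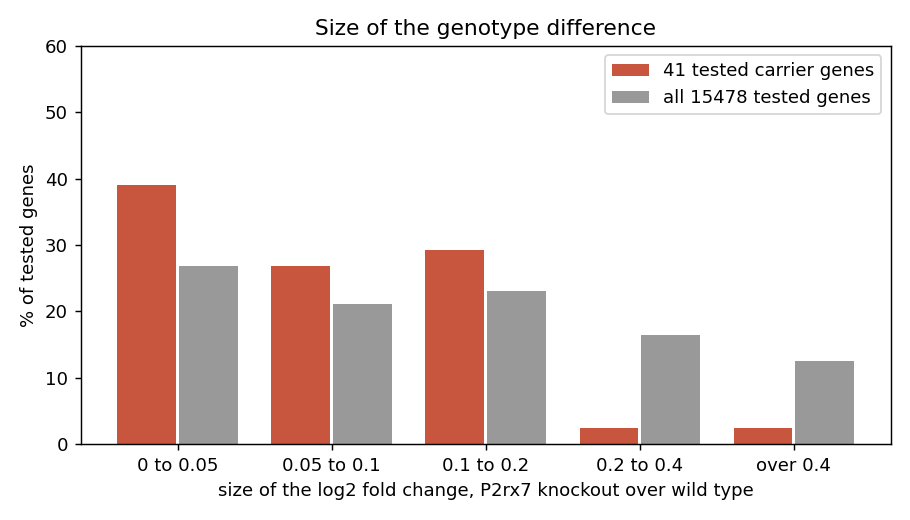
Share of the 41 tested carrier genes and of all 15478 tested genes (vertical axis, %) by the size of the log2 fold change, P2rx7 knockout over wild type (horizontal axis). Sizes up to 0.05 hold 39.0% of the carriers and 26.8% of all tested genes, and sizes over 0.4 hold 2.44% and 12.5%.

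Carriers of ADP, ATP and phosphate serve oxidative phosphorylation, exchanging ATP for ADP and supplying the phosphate. Slc25a4 stood at 104, 111 and 107 FPKM in knockouts A, B and C, against 107, 117 and 112 FPKM in WT 1, 2 and 3. The ranges overlapped, and the log2 fold change was -0.05 ± 0.05 (SE). Slc25a5, its paralog of dividing and many other cells, had 75.5, 78.0 and 75.9 FPKM in the knockouts against 75.0, 74.5 and 70.3 FPKM in the wild types, a log2 fold change of 0.07 ± 0.05. Each knockout was above each wild type in deposited FPKM, but knockout A and WT 1 overlapped in TMM-scaled CPM, the scale on which overlap was counted. The phosphate carrier Slc25a3 had 56.3, 58.5 and 58.7 FPKM in the knockouts against 57.2, 58.8 and 55.3 FPKM in the wild types.

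The FPKM ratio of Slc25a4 to Slc25a5 was 1.38, 1.42 and 1.41 in the knockouts and 1.42, 1.57 and 1.59 in WT 1, 2 and 3. The means were 1.40 ± 0.0204 in the knockouts and 1.53 ± 0.0940 in the wild types (SD, n = 3 each), with p = 0.2 in an exact two-sided permutation test. Slc25a31, the ADP/ATP carrier of male germ cells, had 6, 12 and 4 counts in the knockouts and 6, 2 and 5 in the wild types, and was not tested. The ratio of its counts, scaled to the group totals, was 1.86 (exact 95% binomial interval 0.898 to 4.03), and markers of male germ cells summed to at most 0.1 CPM in the knockouts and 0.0501 CPM in the wild types. The carriers of ATP-Mg against phosphate, which set the adenine nucleotide pool and respond to calcium, differed among themselves in level. Slc25a24 had 29.4, 27.4 and 27.4 FPKM in the knockouts and 31.7, 34.9 and 27.9 FPKM in the wild types (log2 fold change -0.16 ± 0.08 SE), with WT 3 among the knockouts in level. Slc25a23 averaged 4.21 ± 0.335 FPKM in the knockouts and 3.83 ± 0.232 FPKM in the wild types, and Slc25a25 averaged 2.30 ± 0.0798 FPKM in the knockouts and 2.15 ± 0.109 FPKM in the wild types (SD, n = 3 each). Slc25a25 shares 379 exon bases with Naif1 on the opposite strand, which had 248 to 308 counts against its 348 to 408. The FPKM ratio of Slc25a24 to Slc25a23 was 6.45, 6.56 and 7.04 in the knockouts and 8.79, 9.13 and 6.87 in the wild types (exact two-sided permutation p = 0.2). Slc25a54 had 2 counts in all and Slc25a41 had 0 in every library.

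Among the uncoupling proteins Ucp2 was abundant and the other 2 were at trace level. Ucp2, which is expressed in macrophages and other immune cells and is best known for tempering mitochondrial oxidant production and fuel use, had 96.9, 99.7 and 83.9 FPKM in knockouts A, B and C, against 94.0, 95.7 and 90.7 FPKM in WT 1, 2 and 3. The knockouts spanned the whole range of the wild types, with knockout C lowest, and the log2 fold change was 0.01 ± 0.07 (SE; 95% interval -0.16 to 0.18). Of its exon bases, 305 are shared with Dnajb13 on the opposite strand, which had 35 to 66 counts against 11773 to 15482 of Ucp2. Ucp3, the form of skeletal muscle, had 3, 0 and 1 counts in the knockouts and 6, 3 and 5 in the wild types. The ratio of its counts was 0.315 (exact 95% binomial interval 0.0754 to 1), and skeletal muscle markers summed to 13.1 to 17.1 CPM in the knockouts and 15.7 to 19.9 CPM in the wild types. Ucp1 had 0, 0 and 2 counts in the knockouts and 0, 1 and 0 in the wild types, and the brown fat marker Cidea had at most 1. The brown adipocyte list of 7 genes, Ucp1 and Cidea included, summed to 3.01 to 3.86 CPM in the knockouts and 1.54 to 2.42 CPM in the wild types. Its 3 tested genes, Dio2, Ppargc1a and Cox7a1, had 6 to 42 counts per library. Their log2 fold changes were 1.29 ± 0.60, 0.97 ± 0.45 and 0.30 ± 0.23 (SE). An unadjusted p below 0.05 was reached by 0 of these 3, against 16.6% of all tested genes (edgeR).

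The relatives of the uncoupling proteins were lower than Ucp2. Slc25a30, also called kidney mitochondrial carrier protein, had 6.47, 5.96 and 6.22 FPKM in the knockouts and 5.99, 6.36 and 6.41 FPKM in the wild types, with a log2 fold change of 0.00 ± 0.06 (SE). Slc25a14, also known as Ucp5, averaged 1.76 ± 0.119 FPKM in the knockouts and 1.75 ± 0.163 FPKM in the wild types (SD, n = 3 each). Slc25a27, known from the brain, averaged 0.439 ± 0.0448 FPKM in the knockouts and 0.489 ± 0.0286 FPKM in the wild types, with a wide 95% interval of -0.55 to 0.25 for its log2 fold change.

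Carriers of di- and tricarboxylates link the citric acid cycle to the cytosol. The oxoglutarate carrier Slc25a11, a part of the malate-aspartate shuttle, had 44.1, 45.0 and 46.6 FPKM in the knockouts and 46.2, 43.8 and 43.7 FPKM in the wild types. It shares 189 exon bases with Rnf167 on the opposite strand, which had 503 to 716 counts against 1813 to 2151. The citrate carrier Slc25a1, which exports citrate for fatty acid synthesis, had 41.6, 40.3 and 41.8 FPKM in the knockouts against 43.2, 43.7 and 43.4 FPKM in the wild types. All knockouts were below all wild types in Slc25a1, with a log2 difference of -0.07 ± 0.04 (SE; edgeR, adjusted p = 0.439). The dicarboxylate carrier Slc25a10 averaged 14.2 ± 1.40 FPKM in the knockouts and 12.8 ± 0.475 FPKM in the wild types (SD, n = 3 each; log2 fold change 0.15 ± 0.08 SE). Slc25a20, which brings in acylcarnitines for fatty acid oxidation, averaged 5.35 ± 0.209 FPKM in the knockouts and 5.02 ± 0.307 FPKM in the wild types. Slc25a21, a carrier of oxoadipate, had 1, 2 and 1 counts in the knockouts and 8, 3 and 4 in the wild types. The groups do not overlap there, with a ratio of 0.294 (exact 95% binomial interval 0.0710 to 0.922, which covers counting error only). It shares 189 exon bases with Pax9 on the opposite strand, which had 29 to 54 counts in the knockouts and 59 to 60 in the wild types, and without a stated strand setting their reads cannot be told apart.

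Among amino acid carriers, the 7 tested members had log2 fold changes of -0.11 to 0.00. An unadjusted p below 0.05 was reached by 0 of them, against 16.6% of all tested genes (edgeR). Slc25a44, a carrier of branched-chain amino acids, had 12.5, 12.4 and 13 FPKM in the knockouts and 12.5, 12.4 and 14 FPKM in the wild types. Slc25a12, an aspartate/glutamate carrier of the malate-aspartate shuttle, had 6.35, 7.16 and 6.92 FPKM in the knockouts and 6.66, 6.98 and 6.97 FPKM in the wild types. Its paralog Slc25a13, best known from liver, averaged 2.73 ± 0.164 FPKM in the knockouts and 2.85 ± 0.423 FPKM in the wild types (SD, n = 3 each). The ratio of Slc25a12 to Slc25a13 was 2.49 ± 0.0667 in the knockouts and 2.44 ± 0.302 in the wild types (exact two-sided permutation p = 1). The glutamate carrier Slc25a22 averaged 6.12 ± 0.225 FPKM in the knockouts and 6.15 ± 0.244 FPKM in the wild types, and its paralog Slc25a18 had 8, 7 and 7 counts in the knockouts and 6, 5 and 1 in the wild types. The groups do not overlap there, with a ratio of 2.02 (exact 95% binomial interval 0.957 to 4.48). Slc25a18 shares 32 exon bases with Atp6v1e1 on the opposite strand, which had at least 2148 counts in each library. The ornithine carrier Slc25a15 of the urea cycle averaged 2.03 ± 0.0941 FPKM in the knockouts and 2.21 ± 0.165 FPKM in the wild types, and Slc25a29, a carrier of basic amino acids, averaged 0.809 ± 0.00570 FPKM in the knockouts and 0.851 ± 0.0781 FPKM in the wild types. Slc25a2, another ornithine carrier, had at most 2 counts in a library. The glycine carrier Slc25a38 had 5.70, 6.06 and 5.77 FPKM in the knockouts and 5.42, 6.34 and 6.11 FPKM in the wild types (log2 fold change -0.02 ± 0.08 SE).

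Iron and glutathione carriers both serve iron-sulfur and haem metabolism. Slc25a37 stood at 16.2, 15.3 and 14.4 FPKM in knockouts A, B and C, against 16.3, 16.1 and 15.2 FPKM in WT 1, 2 and 3 (log2 fold change -0.04 ± 0.06 SE). This level occurred beside at most 5 counts of any 1 globin gene in a library. Slc25a28 (chr19:43663801-43674881, minus strand), the broadly expressed mitoferrin 2, had 7.62, 6.87 and 7.68 FPKM in the knockouts against 7.06, 6.38 and 6.30 FPKM in the wild types. Knockout B lay below WT 1, so the groups overlapped, and the log2 fold change of 0.18 ± 0.07 (SE) had an unadjusted p of 0.0446 and an adjusted p of 0.288 (edgeR). The ratio of mitoferrin 1 to mitoferrin 2 was 2.12, 2.23 and 1.88 in the knockouts and 2.31, 2.52 and 2.41 in the wild types. The groups did not overlap in this ratio, and the exact two-sided permutation p was 0.1, the smallest that 3 against 3 allows. Over the 5 ratios of paralogs or related carriers that were tested, the adjusted p was 0.333.

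Slc25a39, a glutathione importer, had 54.0, 53.1 and 53.4 FPKM in the knockouts and 50.8, 54.8 and 54.2 FPKM in the wild types, with a log2 fold change of 0.01 ± 0.04 (SE). Its paralog Slc25a40 averaged 1.62 ± 0.0462 FPKM in the knockouts and 1.58 ± 0.120 FPKM in the wild types. The ratio of Slc25a39 to Slc25a40 was 33 ± 1.24 in the knockouts and 34 ± 3.87 in the wild types (SD, n = 3 each; exact two-sided permutation p = 0.7).

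Carriers of nucleotides and cofactors had 9 tested members, of which Slc25a26 differed most. Slc25a26 (chr6:94500331-94604672, plus strand) imports S-adenosylmethionine, the methyl donor of mitochondrial methylation. It had 1.74, 1.87 and 1.92 FPKM in the knockouts against 1.62, 1.52 and 1.52 FPKM in the wild types, so that all knockouts were above all wild types. Its log2 fold change, 0.26 ± 0.09 (SE), had an unadjusted p of 0.0269 and an adjusted p of 0.246 (edgeR). With knockout A as the only knockout, it was 0.16. Lrig1 on the opposite strand shares 144 of its exon bases and had 409, 286 and 337 counts in the knockouts and 348, 266 and 331 in WT 1, 2 and 3, above the 156 to 185 counts of Slc25a26.

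The most abundant members of that group were Slc25a17, a carrier of the peroxisome rather than the mitochondrion, and Slc25a51, the importer of NAD. Slc25a17 had 18.7, 21.1 and 19.9 FPKM in the knockouts and 18.5, 19.8 and 20.5 FPKM in the wild types. Slc25a51 had 10.5, 10.2 and 9.94 FPKM in the knockouts and 10.4, 10.2 and 10.6 FPKM in the wild types. Both carriers of pyrimidine nucleotides overlapped between genotypes, with log2 fold changes of 0.06 ± 0.05 for Slc25a36 and -0.04 ± 0.15 for Slc25a33 (SE). The values were 0.03 ± 0.09 and 0.05 ± 0.12 for Slc25a16 and Slc25a42, which are linked to coenzyme A, and -0.14 ± 0.10 for the folate carrier Slc25a32.

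Among carriers whose cargo is less well defined, Slc25a34 (chr4:141618824-141623821, minus strand) had the largest log2 fold change of the 41 tested members. It stood at 0.964, 0.947 and 0.747 FPKM in knockouts A, B and C, against 0.653, 0.275 and 0.502 FPKM in WT 1, 2 and 3, from 57, 48 and 40 counts against 35, 17 and 31. All knockouts were above all wild types, and WT 2 was lowest. Its log2 fold change was 0.91 ± 0.30 (SE; 95% interval 0.22 to 1.60), at an unadjusted p of 0.0159 and an adjusted p of 0.215 (edgeR), so it did not pass. Without WT 2 the log2 fold change was 0.62, and with knockout A as the only knockout it was 1.02. The adipocyte marker list, of which all 10 genes were in the table and 9 had counts in every library, also had all knockouts above all wild types and WT 2 lowest. It summed to 1460, 1560 and 1230 CPM in knockouts A, B and C, against 978, 438 and 827 CPM in WT 1, 2 and 3. Most of this was Lpl, at 910, 1020 and 813 CPM in the knockouts and 625, 280 and 528 CPM in the wild types. Adipoq was at 2481, 1886 and 1638 counts in the knockouts and 880, 272 and 1169 in the wild types, and Lep had at most 5. Of the list's 9 tested genes 0 passed, against 0.103% of all tested genes. An unadjusted p below 0.05 was reached by 8 of them (88.9%), against 16.6% of all tested genes (edgeR). The stromal list, which shares Adipoq with the adipocyte list, summed to 5210, 6190 and 6030 CPM in knockouts A, B and C. In WT 1, 2 and 3 it summed to 3690, 2100 and 4250 CPM. Most of the stromal sum came from Cxcl12. The part of either list in the values of Slc25a34 was not tested.

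**Figure D4:**
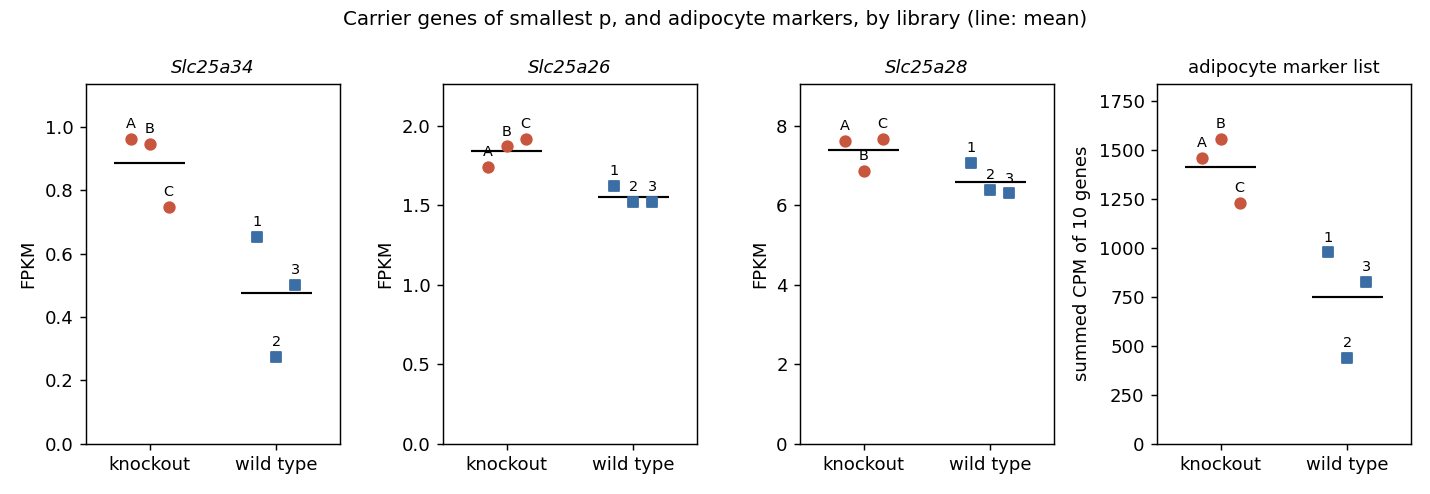
Values by library for the 3 members with an unadjusted p below 0.05 (FPKM) and the summed CPM of 10 adipocyte markers; knockouts are on the left, wild types on the right, and lines are means. Knockouts and wild types are apart for Slc25a34, Slc25a26 and the adipocyte list and overlap for Slc25a28, and WT 2 is the lowest library for Slc25a34 and for the adipocyte list.

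Slc25a46, an outer membrane protein linked to mitochondrial shape, was below all wild types in each knockout, at 9.26, 9.16 and 9.10 FPKM against 9.97, 9.72 and 9.39 FPKM. The log2 fold change was -0.07 ± 0.05 (SE; adjusted p = 0.495, edgeR). Slc25a45 had 23.8, 23.4 and 22.6 FPKM in the knockouts and 22, 20.3 and 23.9 FPKM in the wild types. Slc25a35, Slc25a43, Slc25a47 and Slc25a53 had log2 fold changes of 0.12 ± 0.10, -0.13 ± 0.17, -0.04 ± 0.16 and -0.14 ± 0.13 (SE), and their groups overlapped. Slc25a47, best known from liver, averaged 0.720 ± 0.0482 FPKM in the knockouts and 0.740 ± 0.0407 FPKM in the wild types (SD, n = 3 each). Slc25a48 had 0 counts in all knockouts and 1, 0 and 1 in the wild types.

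Replicates of these genes lay close together. The median coefficient of variation of FPKM over the 41 tested members was 4.15% in the knockouts and 5.85% in the wild types. The widest were 18.6% for Slc25a43 in the knockouts and 39.8% for Slc25a34 in the wild types. The 9 members that failed the filter had at most 12 counts in any library, and an observed 0 is compatible with up to 3 counts, or, over column totals with no TMM factor, 0.134 to 0.160 CPM in single knockout libraries and 0.127 to 0.150 CPM in single wild-type libraries.

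Genes that work beside the carriers were read from the same fit. Of 14 other inner membrane transporters and related proteins, all tested, 0 passed. An unadjusted p below 0.05 was reached by 2 of them (14.3%, edgeR), against 16.6% of all tested genes. The genotypes did not overlap in 2 (14.3%), against 21.9% of all tested genes. The sideroflexin Sfxn3 had 29.2, 27.2 and 26.0 FPKM in the knockouts against 31.9, 36.2 and 33.5 FPKM in the wild types, with all knockouts lower (log2 fold change -0.30 ± 0.06 SE; unadjusted p = 0.00116, adjusted p = 0.130, edgeR). Mpc2, a subunit of the mitochondrial pyruvate carrier, which is not of this family, had 3.92, 4.26 and 3.92 FPKM in the knockouts against 3.47, 3.32 and 3.24 FPKM in the wild types, with all knockouts higher (0.28 ± 0.07 SE; unadjusted p = 0.00267, adjusted p = 0.158). Its partner Mpc1 had a log2 fold change of 0.06 ± 0.12 (SE). The outer membrane homologue Mtch1, the most abundant of this list, had 41.8, 46.0 and 44.9 FPKM in the knockouts and 42.4, 43.6 and 46.2 FPKM in the wild types.

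Of 13 genes for the import of carrier proteins, 0 passed, and 1 (7.69%) had an unadjusted p below 0.05 (edgeR), against 16.6% of all tested genes. The outer membrane receptor Tomm20 had 12.8, 12.7 and 13.3 FPKM in the knockouts against 14, 14.3 and 14.1 FPKM in the wild types (-0.12 ± 0.04 SE; unadjusted p = 0.0233, adjusted p = 0.235, edgeR). Tomm70a, the receptor that takes up carrier precursors, had a log2 fold change of -0.12 ± 0.06, and Timm22, the pore that inserts them, had 0.00 ± 0.07 (SE). The most abundant of this list was Tomm22, another outer membrane receptor, with 31.4, 34.1 and 33.3 FPKM in the knockouts and 32.3, 30.7 and 29.7 FPKM in the wild types. Timm8b, a chaperone of the intermembrane space, had 31.1, 33.8 and 30.1 FPKM in the knockouts and 30.7, 30.8 and 28.6 FPKM in the wild types. The median log2 fold change was 0.036 over the other transporters and -0.004 over the import genes, against 0.004 over all tested genes.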

How the data were processed

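RNA was purified with a Qiagen kit and 1.3 µg went into each SMARTER mRNA-Seq library, per the labels' protocols. The submitters' processing notes name the builds GRCm38 and mm10, 2 names of the same mouse assembly; aligner, counter, annotation and strand setting have no entry in the sources used here. The deposited table holds raw counts per gene symbol and FPKM. The FPKM values of the authors equal counts over exon length over a library size that was 0.982 to 1.02 times the column total (relative tolerance 1e-06 in 100% of values above 0).

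Counts were tested with edgeR 4.0.16 in R 4.3.3: filterByExpr (minimum count 10, 15478 genes kept), TMM, glmQLFit and glmQLFTest, two-sided, with Benjamini-Hochberg adjustment over all tested genes and a threshold of 0.05. Log2 fold changes are knockout over wild type, and CPM values are TMM-scaled, except floors for a count of 0, which use column totals. The 16 alternatives included DESeq2 1.42.0 and limma 3.58.1. Ratios of counts have exact 95% binomial intervals, which, like floors, cover counting error only.

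The members, gene lists and alternatives were chosen with earlier results of these data known. The rule for named genes allowed all members, gave values in every sample for members with an unadjusted p below 0.05 and the 2 most abundant of each role group, and named related genes with such a p or the highest levels. Exons of 14 members overlap other genes, and those with appreciable counts are named. The longest overlap is that of Slc25a35, which shares 1151 bases (31.3% of its exon length) with Rangrf on the opposite strand. Rangrf had 0 to 1 counts per library, and how reads of shared bases were assigned is not stated. Labels number the wild types and letter the knockouts, so no samples are paired. Each library is 1 mouse. Slc25a5-ps, a pseudogene left out by the hyphen rule, had at most 3 counts per library. The values of 1 tested member are not reported here; it stays in all counts. No protein sequences were used here. Promoters are RefSeq sequences.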

Additional observations from a re-analysis of the deposited data

How the results depend on the processing

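No member was called by any of the 16 alternatives, at adjusted p-values down to 0.0657 (Slc25a34 with no filter on low counts, edgeR). Without that filter 30301 genes were tested. There 4 of 49 members had an unadjusted p below 0.05, against 11.6% of all tested genes. The median log2 fold change of the tested members stayed between -0.019 and 0.024. The number of genes called over the whole table, 16 in the edgeR fit, was 970 with no filter, 496 with DESeq2, 10 with limma on log2(FPKM + 1), 2 with limma on log2(FPKM + 0.1), 0 with library set as a term and 0 in the 4 libraries with Gh counts, and ran from 0 to 172 when 1 library was left out, with 0 without knockout B or knockout C, 45 without WT 2 and 172 without WT 3; the cause was not tested. The count of members with an unadjusted p below 0.05 was 1 with DESeq2 and 0 in the 4 libraries, and 1 to 3 with 1 library left out, where 12.3%, 4.06% and 9.22% to 21.9% of all tested genes reached that p. Members whose genotypes did not overlap, 5 in all libraries, numbered 17 in the 4 libraries (41.5%, against 51.5% of all tested genes) and 6 to 15 with 1 library left out (14.6% to 36.6%, against 27.3% to 40.1% of all tested genes), where fewer samples overlap less by construction. Of 656 member values over the alternatives 3 moved from the edgeR value by its SE times the square root of 3 or more. Slc25a34 was 0.36 with limma on log2(FPKM + 1), and Slc25a12 was -0.12 in both fits on library sets. The log2 fold change changed sign in some alternative in 20 members, none over 0.13 in size in the edgeR fit. No paired analysis was possible because wild types carry numbers and knockouts letters. Depth limits the 9 untested members, and the set of libraries with Alb counts holds knockouts only, so that a difference between sets and between genotypes cannot be told apart there.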
